A study of Mus musculus with 16 samples.

Results

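Hox genes encode homeodomain transcription factors that give cells a position along the body axes. Mammals carry them in 4 clusters, Hoxa, Hoxb, Hoxc and Hoxd, and genes with the same paralogue number in different clusters descend from a common ancestor. Low-numbered (anterior) genes act toward the head and high-numbered (posterior) genes toward the tail and the ends of the limbs, and fibroblasts in culture are known to keep much of the Hox pattern of the site they were taken from. The genes described here are those whose symbol starts with Hoxa, Hoxb, Hoxc or Hoxd and a number, 36 of the 18193 genes with a probe set naming that gene alone. Of these, 33 are coding genes and 3 are antisense transcripts (Hoxa11os, Hoxb5os and Hoxd3os1). There were 10 in Hoxa, 10 in Hoxb, 7 in Hoxc and 9 in Hoxd. Other coding Hox genes were not analysed here.

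RNA was measured in mouse embryonic fibroblasts (MEF), connective tissue cells grown from embryos, on 16 arrays. The 4 groups of 4 arrays were CHOP knockout (CHOP-/-) cells given MG132, which blocks the proteasome, at 1 µM over 8 hours, CHOP-/- cells untreated, wild-type (CHOP+/+) cells with the same MG132 dose and time, and wild-type cells untreated. CHOP is a stress-response transcription factor encoded by Ddit3, and the series set out to find CHOP-dependent genes under proteasome inhibition. All cells grew in the same medium with serum, each array is a 10 cm plate, and titles call the untreated cells untreated while descriptions name DMSO, the solvent of MG132. No label tells whether the plates of a genotype came from several embryos or isolations, or gives their body site or sex, so the p-values measure only the spread between these plates, which may be technical.

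Values are MAS5 signals, a linear brightness per probe set that the authors had scaled to a common trimmed mean of 1000 on every array, and they carry no detection calls. Array medians lay between 90.1 and 113.4, and the number of arrays limits the precision. Changes are log2 differences of signal + 16 with standard error (SE), from limma over all 16 arrays. The log2 scale makes 1 unit a doubling, and the added 16 shrinks changes of dim genes. A gene was tested when it exceeded the array median on at least 4 of 16 arrays (11451 genes), and "rose", "fell", "higher" and "lower" of a tested gene mean a Benjamini-Hochberg adjusted p under 0.05 over all of them. "Under the filter" marks genes not tested in that fit, whose test comes from a fit of all 18193 genes.

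Ddit3 itself gave 429.8, 394, 418.3 and 342.2 in knockout cells with MG132 and 382.3, 351.6, 393.2 and 343.1 in untreated knockout cells. Wild-type cells gave 8181, 6891, 8087 and 7739 with MG132 and 886.9, 1054, 998 and 1127 untreated. All 8 knockout arrays lay below all 8 wild-type arrays, the direction the genotype labels give. The sources used here do not place its probe set against the deleted stretch.

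The genotypes also differed in sex-linked transcripts. Xist, made from the inactive X chromosome in female cells, gave 8232 to 11850 on the 8 knockout arrays, against 245.2 to 453 on the 8 wild-type arrays. Eif2s3y, on the Y chromosome, gave 1.59 to 29.7 on knockout arrays, against 4372 to 7504 on wild-type arrays, and Uty and Kdm5d, also Y-linked, were lower in knockout cells. With these values, an effect of CHOP on the Hox genes and a difference in the sex, the embryo or the body site of the cells cannot be told apart in the genotype comparisons.

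20 of the 36 Hox genes passed the filter: 9 in Hoxa, 5 in Hoxb, 1 in Hoxc (Hoxc6) and 5 in Hoxd. Among the 16 others, 13 never exceeded the array median, and the highest signal of any of the 16 on any array was 136.2. Of the 20, 10 exceeded the median in both genotypes, 6 in knockout cells alone (Hoxa3, Hoxa4, Hoxb2, Hoxb3, Hoxb6 and Hoxb9) and 4 in wild-type cells alone (Hoxd8, Hoxd9, Hoxd10 and Hoxd11). Genes of the last 2 kinds passed through the genotype in which they are high, so counts over the 20 describe them and are not evidence in themselves.

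Of the tested Hox genes, those of the 5' part of Hoxd differed most between the genotypes. The 150 bases before the RefSeq start of Hoxd8, Hoxd9, Hoxd10 and Hoxd13 are shown because these neighbours were all lower in knockout cells, and those of Hoxa9 because it is the Hoxa gene of the same number as Hoxd9 and differed the other way. The windows are chr2:74704465-74704614, chr2:74697613-74697762, chr2:74691741-74691890 and chr2:74668075-74668224 on the plus strand for the Hoxd genes in that order, and chr6:52227371-52227520 on the minus strand for Hoxa9 (RefSeq, GRCm38.p6), all written 5′ to 3′ along the gene. Capitals mark the GC box GGGCGG, a binding motif of SP1-type factors, and CCAAT, the motif of NF-Y, on either strand.
Hoxd8: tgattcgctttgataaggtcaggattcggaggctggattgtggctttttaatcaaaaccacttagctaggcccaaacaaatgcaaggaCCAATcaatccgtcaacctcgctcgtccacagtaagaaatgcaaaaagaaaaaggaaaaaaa
Hoxd9: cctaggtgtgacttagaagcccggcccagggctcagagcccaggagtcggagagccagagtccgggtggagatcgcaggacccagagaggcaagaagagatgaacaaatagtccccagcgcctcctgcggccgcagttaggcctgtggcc
Hoxd10: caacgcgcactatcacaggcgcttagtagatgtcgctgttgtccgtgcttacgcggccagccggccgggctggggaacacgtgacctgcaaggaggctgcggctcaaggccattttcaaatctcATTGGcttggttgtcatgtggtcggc
Hoxd13: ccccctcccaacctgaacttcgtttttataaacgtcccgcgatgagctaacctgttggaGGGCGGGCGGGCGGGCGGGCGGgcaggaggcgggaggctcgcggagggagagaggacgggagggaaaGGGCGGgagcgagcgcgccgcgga
Hoxa9: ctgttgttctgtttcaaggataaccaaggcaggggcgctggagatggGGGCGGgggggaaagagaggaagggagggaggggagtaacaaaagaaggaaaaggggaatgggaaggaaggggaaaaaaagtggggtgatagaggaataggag

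The Hoxd13 window holds 6 GC boxes, 5 of them overlapping each other, and the Hoxa9 window holds 1. The Hoxd8 and Hoxd10 windows hold 1 CCAAT each, that of Hoxd10 on the other strand, and the Hoxd9 window holds neither. Over 32851 mouse promoters of the same length, 28.6% held GGGCGG and 24.5% held CCAAT, counted on both strands. Of the 36 Hox genes, 21 had a promoter entry, 23 entries in all, and 6 of the 23 held GGGCGG and 9 held CCAAT. TGATTNAT, a motif bound by PBX-HOX pairs, was in 2 of the 23 and in 1.61% of all promoters. TGATGNAAT, the composite C/EBP-ATF motif to which CHOP pairs are known to bind, was in 0 of the 23 and in 0.554% of all promoters. A match of letters is a description, and its absence from these windows says nothing about binding elsewhere.

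In untreated cells, 10 of the 20 tested Hox genes were higher and 5 lower in knockout than in wild-type cells, where 28.6% and 26.9% of all tested genes were. With MG132, 8 were higher and 5 lower, against 30.7% and 28.1% of all tested genes. The same 8 genes were higher at both treatments (background 19.7%), and the same 5, all Hoxd, were lower at both (background 18.4%). In the fit of all genes without a filter, which takes in all 36 Hox genes, 12 were higher and 7 lower untreated (background 17.7% and 16.6%), and 9 were higher and 7 lower with MG132 (background 19% and 17.6%). Across all members of a cluster, tested or not, the median untreated log2 difference was -4.00 in Hoxd, 0.12 in Hoxc, 1.45 in Hoxb and 0.39 in Hoxa, beside 0.01 over all 18193 genes. With MG132 the medians were -3.51, 0.37, 1.13 and 0.41 in the same order, beside 0.02.

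Hoxd13, the gene of the distal limb and digits, was bright in wild-type cells and much dimmer in knockout cells. It gave 269.8, 335.6, 332.7 and 287.8 in knockout cells with MG132 and 391.6, 506.5, 375.3 and 432.7 in untreated knockout cells. Wild-type cells gave 5368, 5848, 5213 and 5589 with MG132 and 8846, 8072, 6973 and 7808 untreated. Knockout and wild-type arrays were far apart, and every knockout array still lay above its array median. The knockout level was 5.57% of wild type with MG132 and 5.38% untreated. The log2 difference was -4.10 with MG132 (SE 0.09, limma adjusted p = 1.59e-18) and -4.17 untreated (SE 0.09, adjusted p = 1.73e-18). A further Hoxd13 probe set averaged 142.9 ± 30.9 and 144.2 ± 2.33 in knockout cells, against 2331 ± 77.0 and 2296 ± 491 in wild-type cells (MG132 first, then untreated, SD, n = 4), differences of -3.90 and -3.82.

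Hoxd10, which patterns lumbar levels and the hindlimb, had the largest difference of the 20 tested Hox genes. Its signals were 8.42, 8.24, 11 and 15 in knockout cells with MG132 and 7.57, 6.03, 6.25 and 18.4 in untreated knockout cells. Wild-type cells gave 909.5, 1078, 1020 and 1038 with MG132 and 1281, 1084, 929 and 1111 untreated. No knockout array came near any wild-type array. The log2 difference was -5.27 with MG132 (SE 0.18, adjusted p = 1.03e-15) and -5.47 untreated (SE 0.18, adjusted p = 5.65e-16). Its size rests on the added constant, since the untreated value was -6.83 with 1 and -3.98 with 64 in place of 16. So does its rank. With 64 the difference of Hoxd13 was larger than that of Hoxd10, at -4.03 against -3.98 untreated and -3.91 against -3.85 with MG132.

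Hoxd8, a gene of the trunk axis at the 3' side of this block, gave 18.8, 24.2, 27.1 and 22.5 in knockout cells with MG132 and 83.1, 35.6, 35.6 and 44.8 in untreated knockout cells. Wild-type cells gave 691.2, 845.8, 695.6 and 730.2 with MG132 and 1302, 1676, 1367 and 1290 untreated. The groups did not overlap between genotypes at either treatment. Log2 differences were -4.27 with MG132 (SE 0.18, adjusted p = 5.3e-14) and -4.48 untreated (SE 0.18, adjusted p = 2.37e-14). Another Hoxd8 probe set, which by its suffix can match related sequences, differed by -2.88 with MG132 and -3.65 untreated.

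Hoxd9, active in the proximal limb and lumbosacral region, gave 12.5, 41.7, 28.7 and 8.33 in knockout cells with MG132 and 11.9, 8.72, 19.0 and 26.9 in untreated knockout cells. Wild-type cells gave 372.8, 479.8, 392.3 and 367.1 with MG132 and 548.3, 589, 413.1 and 526 untreated. Every wild-type array was above every knockout array, by log2 differences of -3.51 with MG132 (SE 0.26, adjusted p = 3.14e-10) and -4.06 untreated (SE 0.26, adjusted p = 3.41e-11). Hoxd11, needed for the forearm, gave 8.47, 11.9, 12 and 3.65 in knockout cells with MG132 and 9.10, 50.6, 30.6 and 17.7 in untreated knockout cells. Its wild-type signals were 621.6, 568.6, 435.1 and 571.5 with MG132 and 552.5, 604.5, 720 and 652 untreated. The separation was again complete, with differences of -4.50 (SE 0.25, adjusted p = 3.23e-12) and -4.00 (SE 0.25, adjusted p = 2.2e-11).

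A called difference of at least 3 log2 units, lower in knockout cells, was met by all 5 tested Hoxd genes at both treatments. Of all tested genes, 0.751% met it with MG132 and 0.76% untreated. Hoxd8, Hoxd9, Hoxd10 and Hoxd11 passed the filter through wild-type cells alone, so this count describes them and is not evidence in itself. The mark also depends on the added constant. With a constant of 64, Hoxd9 (-2.44 with MG132 and -2.85 untreated) and Hoxd11 untreated (-2.95) did not reach it. Hoxd8, Hoxd10 and Hoxd13 still did at both treatments, as did Hoxd11 with MG132. Hoxd12, under the filter, averaged 9.30 ± 8.84 and 14.9 ± 14.3 in knockout cells with MG132 and untreated, against 37.9 ± 15.1 and 69.2 ± 35.5 in wild-type cells, and it was lower in the fit of all genes, with differences of -1.10 (adjusted p = 0.0272) and -1.49 (adjusted p = 0.0038). The antisense transcript Hoxd3os1, also dim, was lower, with differences of -1.65 and -1.11 (adjusted p = 0.000163 and 0.00658). A second Hoxd3os1 probe set, equally dim, differed by -0.67 with MG132 and, in the opposite direction, by 0.79 untreated (SE 0.40 each). Hoxd1 and Hoxd3, at the 3' end, stayed dim in all 4 groups, with means of 19.8 to 33.0, and neither passed the test.

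**Figure D1:**
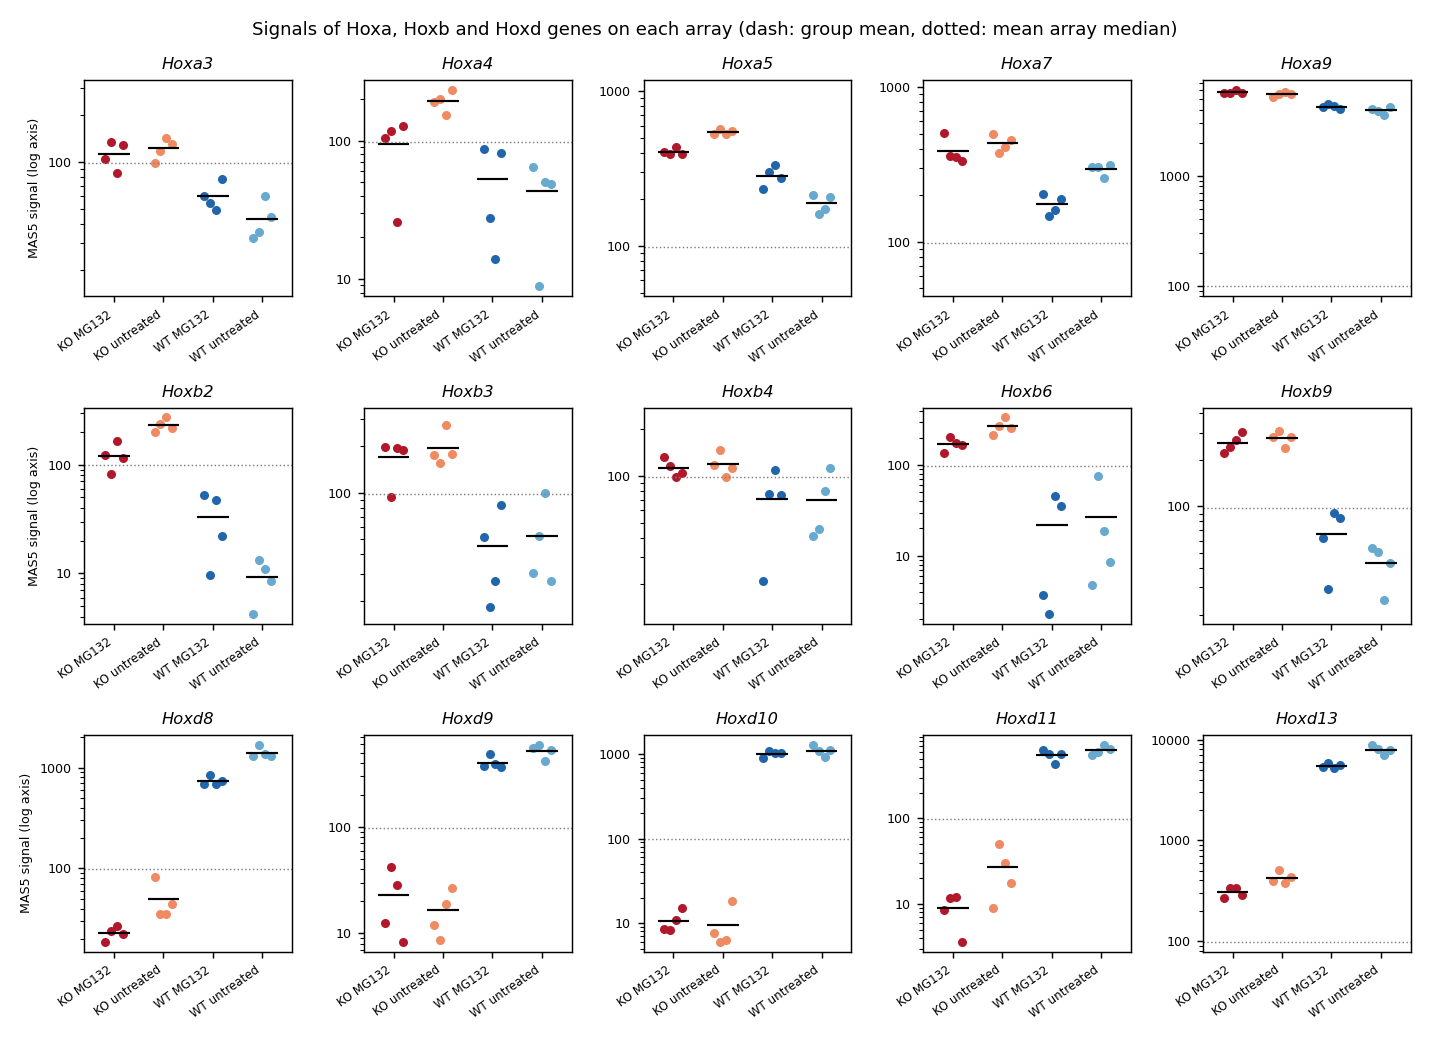
MAS5 signal (log axis) of 15 Hox genes on each of the 16 arrays, with knockout (KO) groups left of wild-type (WT) groups and MG132 left of untreated; points are arrays, dashes group means, the dotted line the mean array median. The Hoxd genes sit far lower in KO cells, for example Hoxd10 at 6.03 to 18.4 in KO against 909.5 to 1281 in WT cells, while Hoxb2, Hoxb6 and Hoxb9 sit higher in KO cells.

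Hoxb genes differed in the opposite direction. 4 of 5 tested Hoxb genes (Hoxb2, Hoxb3, Hoxb6 and Hoxb9) were higher in knockout cells at both treatments (background 19.7%). In the fit of all genes Hoxb13 was higher at both too. Wild-type signals of these genes lay mostly under the array median. Hoxb2, Hoxb3, Hoxb6 and Hoxb9 passed the filter through knockout cells alone, so the count of 4 describes them and is not evidence in itself.

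Hoxb2, known for patterning the hindbrain, gave 123, 82.7, 162.7 and 114.2 in knockout cells with MG132 and 200.8, 234.1, 271.1 and 215.6 in untreated knockout cells. Wild-type cells gave 52.8, 9.79, 46.9 and 21.9 with MG132 and 4.24, 13.3, 10.9 and 8.55 untreated. Knockout arrays were all above wild-type arrays, the more so without MG132. The log2 difference was 1.56 with MG132 (SE 0.31, adjusted p = 0.0002) and 3.29 untreated (SE 0.31, adjusted p = 1.51e-08). With constants of 64 and 1 it ranged from 2.00 to 4.58 untreated.

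Hoxb6, a gene of trunk and lateral mesoderm, gave 137.5, 202.6, 177.8 and 165 in knockout cells with MG132 and 217, 268.3, 337.2 and 259.8 in untreated knockout cells. Wild-type cells gave 3.68, 2.27, 45.4 and 35.7 with MG132 and 4.78, 76.1, 18.9 and 8.48 untreated. These wild-type signals scattered widely but stayed below every knockout array. The difference was 2.50 with MG132 (SE 0.43, adjusted p = 3.89e-05) and 2.99 untreated (SE 0.43, adjusted p = 5.18e-06).

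Hoxb9, which shapes the thoracic skeleton, averaged 258.7 ± 35.1 and 277.3 ± 27.5 in knockout cells with MG132 and untreated, against 66.5 ± 27.6 and 43.1 ± 12.9 in wild-type cells (SD, n = 4), differences of 1.80 and 2.34 (SE 0.25 each, adjusted p = 2.48e-06 and 7.87e-08). Hoxb3, a hindbrain and branchial arch gene, averaged 169.3 ± 50 and 196 ± 54 in knockout cells, against 45.3 ± 29.4 and 52.6 ± 33.8 in wild-type cells, differences of 1.67 and 1.72 (SE 0.35 each, adjusted p = 0.000392 and 0.000334). Neither gene's groups overlapped between genotypes. A second Hoxb3 probe set, with group means of 20.1 to 50.7, differed by 0.54 with MG132 and 0.83 untreated (SE 0.46 each). With both Hoxb3 probe sets averaged the differences were 1.10 and 1.27, and both passed. Hoxb4, a regulator of blood stem cells, averaged 112.7 ± 14.8 and 118.8 ± 20.5 in knockout cells, against 70.5 ± 36.6 and 69.8 ± 33.8 in wild-type cells. Its arrays overlapped and its differences missed the threshold (adjusted p = 0.074 with MG132 and 0.0676 untreated).

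Under the filter, Hoxb13, the last gene of the cluster and a prostate and tail gene, averaged 81.0 ± 24.4 and 76.4 ± 26.4 in knockout cells with MG132 and untreated, against 17.2 ± 11 and 8.44 ± 2.84 in wild-type cells. It was higher by 1.56 (adjusted p = 0.00023) and 1.89 (adjusted p = 3.08e-05) in the fit of all genes. Hoxb5 was higher untreated (1.18, adjusted p = 0.000368), with all signals at or below 42.4, and did not pass with MG132 (0.35, adjusted p = 0.29). A probe set that matches Hoxb8 and Hoxb7 together averaged 97.8 ± 44.3 and 120.5 ± 36 in knockout cells and 15.6 ± 10.2 and 18.2 ± 20.4 in wild-type cells, and the signals of those 2 genes cannot be told apart there.

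Several Hoxa genes were higher in knockout cells, by at most 1.94 log2 units, and several at the posterior end were not. Untreated, 6 of 9 tested Hoxa genes were higher in knockout cells (Hoxa3, Hoxa4, Hoxa5, Hoxa7, Hoxa9 and Hoxa11), and with MG132 4 of 9 were higher (Hoxa3, Hoxa5, Hoxa7 and Hoxa9). The other tested Hoxa genes did not pass. Of all tested genes, 28.6% were higher untreated and 30.7% with MG132. Hoxa3 and Hoxa4 passed the filter through knockout cells alone.

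Hoxa9, a regulator of blood progenitors and posterior patterning, gave 5718, 5741, 6100 and 5721 in knockout cells with MG132 and 5283, 5523, 5768 and 5588 in untreated knockout cells. Wild-type cells gave 4214, 4485, 4344 and 4041 with MG132 and 4105, 3939, 3563 and 4228 untreated. The genotypes did not overlap, although the step was small, 0.45 with MG132 (SE 0.05, adjusted p = 4.14e-07) and 0.49 untreated (SE 0.05, adjusted p = 1.41e-07). A further Hoxa9 probe set gave 0.35 and 0.49.

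Hoxa5, a gene of the neck, upper trunk and lung, gave 403.6, 393.7, 438.6 and 395.9 in knockout cells with MG132 and 527.1, 571.6, 526.6 and 551.8 in untreated knockout cells. Wild-type cells gave 231.9, 300.2, 332.8 and 276.9 with MG132 and 212.1, 161.7, 173.6 and 206.4 untreated. All knockout arrays lay above all wild-type arrays, by 0.50 with MG132 (SE 0.12, adjusted p = 0.0011) and 1.46 untreated (SE 0.12, adjusted p = 1.73e-09). A second Hoxa5 probe set, which by its suffix can match related sequences, differed less, by 0.25 with MG132 and 0.69 untreated (SE 0.21 each). With both averaged the differences were 0.38 and 1.07, and both passed.

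Hoxa7, of the thoracic axis, gave 503.4, 360.3, 353.7 and 330.6 in knockout cells with MG132 and 494, 376.6, 406.5 and 454.6 in untreated knockout cells. Wild-type cells gave 202.6, 145.8, 161.5 and 188.3 with MG132 and 303.7, 304.3, 256.6 and 314 untreated. It too was higher without overlap, by 1.07 (SE 0.14, adjusted p = 1.69e-06) with MG132 and 0.53 (SE 0.14, adjusted p = 0.00342) untreated.

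Hoxa4, of the neck vertebrae, gave 104, 118.4, 25.7 and 128.4 in knockout cells with MG132 and 191.7, 198.9, 152.3 and 233.8 in untreated knockout cells. Wild-type cells gave 86.9, 27.8, 13.9 and 82.0 with MG132 and 64.9, 8.86, 50.3 and 48.7 untreated. It was higher untreated by 1.94 (SE 0.45, adjusted p = 0.00096), whereas with MG132 the arrays overlapped and it did not pass (0.72, SE 0.45, adjusted p = 0.177). Hoxa3, of the neck and thymus, averaged 113.5 ± 22.7 and 122.9 ± 19.3 in knockout cells with MG132 and untreated, against 60.5 ± 12.5 and 43.0 ± 12.5 in wild-type cells, differences of 0.76 and 1.25 (SE 0.24 each, adjusted p = 0.0092 and 0.000137). This probe set can match related sequences. With it left out the difference was 0.64 with MG132 and 0.14 untreated, and neither passed.

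Hoxa13 and Hoxa10 passed the genotype test at neither treatment. Hoxa13, which with Hoxd13 builds the distal limb and genital region, gave 82.2, 175.4, 115.6 and 168.4 in knockout cells with MG132 and 254.5, 310.2, 252.8 and 275.2 in untreated knockout cells. Wild-type cells gave 149.5, 146.9, 146.3 and 143.9 with MG132 and 260.4, 275.2, 235.1 and 304.6 untreated. Its genotype difference was -0.15 with MG132 (95% interval -0.53 to 0.22, adjusted p = 0.486) and 0.02 untreated (-0.35 to 0.40, adjusted p = 0.925).

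Hoxa10, known from the uterus and posterior axis, gave 1504, 1598, 1370 and 1458 in knockout cells with MG132 and 2305, 2313, 2120 and 2461 in untreated knockout cells. Wild-type cells gave 1747, 1644, 1451 and 1514 with MG132 and 2503, 2059, 2277 and 2048 untreated. The genotypes overlapped, with differences of -0.10 (95% interval -0.25 to 0.06) and 0.05 (-0.10 to 0.21). Hoxa11, which with Hoxd11 builds the forearm, gave 1312, 1675, 1598 and 1663 in knockout cells with MG132 and 2021, 2412, 2134 and 2075 in untreated knockout cells. Wild-type cells gave 1579, 1628, 1416 and 1533 with MG132 and 1619, 2084, 1746 and 1769 untreated.

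Hoxa11 overlapped between genotypes at both treatments. It was higher untreated by 0.26 (SE 0.09, adjusted p = 0.0138), a call lost without untreated knockout replicate 2 (0.21), and did not pass with MG132 (0.02, SE 0.09, adjusted p = 0.887). Its antisense transcript Hoxa11os gave 965, 953.2, 857.1 and 1107 in knockout cells with MG132 and 1641, 1373, 1748 and 1718 in untreated knockout cells. Wild-type cells gave 956.2, 998.9, 754.4 and 883.7 with MG132 and 1584, 1410, 1386 and 1763 untreated. It did not pass either genotype test.

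Hoxc genes were dim. Hoxc6 was the one that passed the filter, with means of 93.0 ± 40.8 and 78.9 ± 39.2 in knockout cells with MG132 and untreated, against 59.1 ± 33.1 and 66.7 ± 24.7 in wild-type cells, and its groups overlapped (adjusted p = 0.231 and 0.816). The other 6 Hoxc genes had group means of 7.02 to 44.3.

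**Figure D2:**
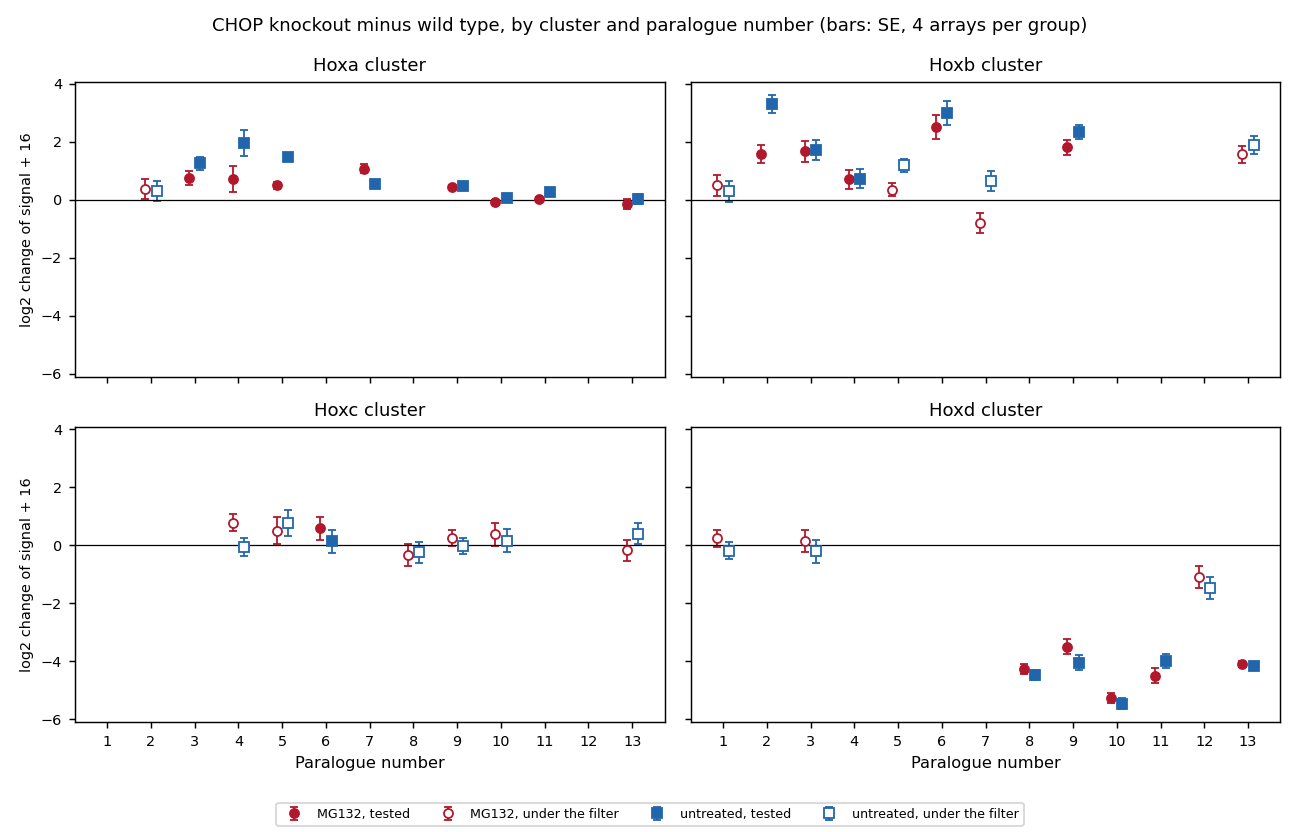
Knockout minus wild-type log2 difference (signal + 16, vertical axis) of the coding Hox genes by paralogue number (horizontal axis) in each cluster; circles with MG132, squares untreated, bars SE, open symbols under the filter. The 5 tested Hoxd genes lie between -5.47 and -3.51, the Hoxb genes mostly above 0, and Hoxa10 and Hoxa13 at -0.15 to 0.05.

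By paralogue number, opposite calls of tested genes in different clusters were found for number 9 at both treatments and for number 11 untreated. Of the 3 tested genes of number 9, Hoxa9 and Hoxb9 were higher and Hoxd9 lower in knockout cells at both treatments. Among numbers 10, 11 and 13, Hoxd10, Hoxd11 and Hoxd13 were lower, while Hoxa10 and Hoxa13 did not pass and Hoxa11 passed as higher untreated alone. Hoxb13, under the filter, was higher at both treatments in the fit of all genes, opposite to Hoxd13. All 3 tested genes of numbers 1 to 3 (Hoxa3, Hoxb2 and Hoxb3) were higher at both treatments. These 3 exceeded the array median in knockout cells alone, so passing the filter favoured that direction. In the fit of all genes, Hoxa2, Hoxb1, Hoxd1 and Hoxd3 passed at neither treatment and Hoxd3os1 was lower at both. The counts that follow also take in genes that passed the filter through 1 genotype alone. Of the 7 tested with numbers 4 to 8, 3 were higher and 1 lower with MG132, and 4 were higher and 1 (Hoxd8) lower untreated. Of the 10 tested with numbers 9 to 13, 2 were higher and 4 lower with MG132, and 3 were higher and 4 lower untreated. Over all tested genes, 30.7% were higher and 28.1% lower with MG132, and 28.6% and 26.9% untreated.

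Several Hox genes fell with MG132. In knockout cells 10 of the 20 tested fell, where 36.8% of all tested genes did. By limma 0 of the 20 rose there, as by an unadjusted p under 0.05, where 25.7% of all tested genes rose. Hoxc4, under the filter and at most 50.9 on any array, rose in the fit of all genes (0.77, adjusted p = 0.0499), where 16.2% did. In that fit Hoxb5, at most 42.4 on any array, fell in knockout cells without overlap (-0.87, adjusted p = 0.00482), where 22.7% of genes did. Wild-type cells had 7 that fell and 2 that rose, where 36.9% fell and 27.2% rose. Hoxb7, under the filter and at most 62.9 on any array, rose there in the fit of all genes without overlap (1.17, adjusted p = 0.00811), where 17.4% did. Fewer cells of a kind and less RNA per cell cannot be told apart in such bulk samples. The 4 genes at the Hoxa end (Hoxa10, Hoxa11, Hoxa11os and Hoxa13) and Hoxd8 and Hoxd13 fell in both genotypes at the main setting.

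Markers of other cell types also moved with MG132. The summed signal of 6 epithelial markers was 595.2 to 642.6 with MG132 against 294.6 to 459.9 untreated in knockout cells, and 872.2 to 1218 against 290.7 to 532.5 in wild-type cells, where 2 of 4 tested markers rose in each genotype. That of 4 cartilage and bone markers was 546.5 to 736.3 with MG132 against 308 to 473.8 untreated in knockout cells, and 595.5 to 797.1 against 185.1 to 424.1 in wild-type cells, where 1 of 2 tested, Sox9, rose in each. Krt14, a keratin of basal epithelium, averaged 63.6 with MG132 and 10.4 untreated in knockout cells, and 471.2 with MG132 and 10.1 untreated in wild-type cells. Tnnt2, a troponin of heart and developing muscle, averaged 270.2 and 252.8 in knockout cells and 229.6 and 15.5 in wild-type cells, a rise in wild type (2.99, adjusted p = 2.03e-10). The summed signal of the 5 muscle markers, Tnnt2 among them, went the other way there, at 707.8 to 1027 with MG132 against 1166 to 1460 untreated. In wild-type cells 1 of 3 tested muscle markers rose and 1 fell. In knockout cells the sum was 826.1 to 978 against 802 to 1009, and 0 of 3 passed. Of 14 tested fibroblast markers, 1 rose and 9 fell in knockout cells, and 4 rose and 8 fell in wild-type cells. Over all tested genes, 25.7% rose and 36.8% fell in knockout cells, and 27.2% and 36.9% in wild-type cells. The 15 fibroblast markers summed to 122000 to 127500 with MG132 against 164000 to 180000 untreated in knockout cells. In wild-type cells they summed to 151300 to 166700 against 170800 to 197900. The part of these markers in the Hox responses was not tested.

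With the signals given above, Hoxa13 fell by 0.98 (SE 0.18, adjusted p = 7.94e-05) in knockout and by 0.80 (SE 0.18, adjusted p = 0.000582) in wild-type cells, and treated and untreated arrays did not overlap in either. Hoxa11os fell by 0.73 (SE 0.10, adjusted p = 3.01e-06) and by 0.76 (SE 0.10, adjusted p = 1.47e-06), again without overlap. A second Hoxa11os probe set, with group means of 2.11 to 14.1, changed by 0.06 and -0.37 (SE 0.32 each), and with all probe sets averaged the knockout call was lost (-0.34, adjusted p = 0.0723). Hoxa10 fell by 0.63 (SE 0.08) in knockout and 0.48 (SE 0.08) in wild-type cells. A second Hoxa10 probe set, with group means of 31.4 to 60.1, changed by -0.70 and -0.09 (SE 0.39 each), and with both averaged the wild-type call was lost (-0.28, adjusted p = 0.156). Hoxa11, their neighbour, fell by 0.47 (SE 0.09) in knockout cells and by 0.22 (SE 0.09, adjusted p = 0.028) in wild-type cells, where its arrays overlapped and the call was lost without untreated replicate 2 or MG132 replicate 3. Hoxa9, next to them, did not pass, with changes of 0.07 (adjusted p = 0.256) and 0.11 (adjusted p = 0.0745).

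Within Hoxd, Hoxd13 fell by 0.45 (SE 0.09, adjusted p = 0.000215) in knockout and 0.52 (SE 0.09, adjusted p = 4.46e-05) in wild-type cells. The changes of its other probe set were -0.03 and 0.05 (SE 0.14 each), and with both averaged the change was -0.24 in each genotype. Hoxd8 fell by 0.70 (SE 0.18, adjusted p = 0.00219) in knockout cells, where it was already dim and the call was lost with only those groups fitted (adjusted p = 0.0902), and by 0.91 (SE 0.18, adjusted p = 0.000174) in wild-type cells, and its other probe set changed by -0.36 (SE 0.24) and -1.13 (SE 0.24). Hoxd9 and Hoxd10 passed in neither genotype. Hoxd11 passed in knockout cells alone (-0.70, SE 0.25, adjusted p = 0.0177), where all signals were at or below 50.6, its groups overlapped, and the call was lost with a constant of 64 (-0.30) and without untreated replicate 2 or MG132 replicate 4 (-0.46 to -0.93 over all arrays left out in turn).

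Among the more anterior genes, Hoxa7 fell by 0.71 (SE 0.14, adjusted p = 0.000178) in wild-type cells, while its change in knockout cells missed the threshold (-0.17, SE 0.14, adjusted p = 0.319). Hoxa4 fell by 1.07 (SE 0.45, adjusted p = 0.0438) in knockout cells, a call lost without MG132 replicate 3, whose signal of 25.7 was far below the others (-0.65), without MG132 replicate 1 or untreated replicate 1, 2 or 4, and under 5 alternative settings. Hoxb3, Hoxb4, Hoxb6 and Hoxb9 did not pass in either genotype. In knockout cells, however, every MG132 array of Hoxb6 lay below every untreated one (-0.61, SE 0.43, adjusted p = 0.222). It passed there with a constant of 64 (-0.51, adjusted p = 0.0457) and with only those groups fitted.

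**Figure D3:**
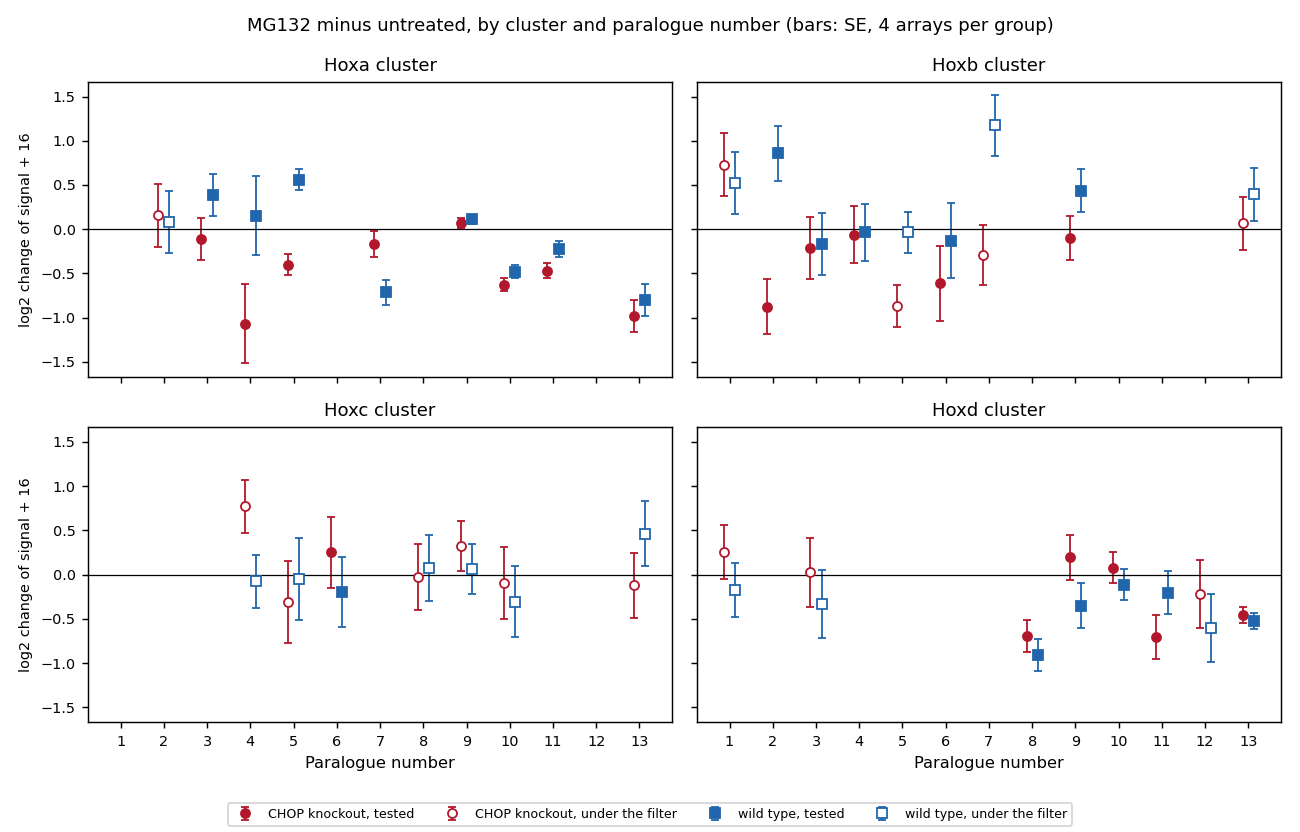
MG132 minus untreated log2 difference (signal + 16, vertical axis) of the coding Hox genes by paralogue number (horizontal axis) in each cluster; circles knockout, squares wild type, bars SE, open symbols under the filter. Hoxa10, Hoxa11 and Hoxa13 fall in both genotypes, by 0.22 to 0.98, while Hoxa5 and Hoxb2 lie below 0 in knockout and above 0 in wild-type cells.

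3 Hox genes responded differently in the genotypes by the test of the difference itself, 1 higher and 2 lower in knockout cells, where 14.2% and 14.1% of all tested genes were. Hoxb2 fell with MG132 in knockout cells (-0.87, SE 0.31, adjusted p = 0.0184) and rose in wild-type cells (0.86, SE 0.31, adjusted p = 0.0198), a difference of -1.73 (SE 0.44, adjusted p = 0.00515). Its treated and untreated arrays were apart in knockout cells and overlapped at low signals in wild-type cells, and the wild-type rise was lost with a constant of 64 (0.38), with only those groups fitted (adjusted p = 0.118) and without untreated replicate 1 or MG132 replicate 1 or 3. The fall in knockout cells was lost with a constant of 1 (-0.96, adjusted p = 0.0984) and without untreated replicate 3 or MG132 replicate 2, whereas the difference between responses stayed past the threshold with each array left out in turn. Hoxa5 fell in knockout cells (-0.40, SE 0.12, adjusted p = 0.00591) and rose in wild-type cells (0.56, SE 0.12, adjusted p = 0.000359), without overlap in either. Its difference of -0.96 (SE 0.17, adjusted p = 0.000247) remained past the threshold at each setting tried, while the fall in knockout cells alone was lost with quantile normalisation (-0.25) and with arrays centred on their medians (-0.29). A second Hoxa5 probe set changed by -0.23 (SE 0.21) and 0.21 (SE 0.21). Hoxa7 differed by 0.54 (SE 0.20, adjusted p = 0.0481), a call lost when any of 10 of the 16 arrays was left out (lowest value 0.42). For the other 17 tested genes the difference between responses did not pass. In the fit of all genes Hoxb7 had a lower response in knockout cells (-1.46, adjusted p = 0.0434), where 8.14% did.

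Hox proteins bind DNA together with cofactors of the PBX, MEIS and PKNOX families, and 8 of the 9 listed were tested. With MG132 as without, 5 were higher and 1 lower in knockout cells. Of all tested genes, 30.7% were higher and 28.1% lower with MG132, and 28.6% and 26.9% untreated. The medians over the list were 0.45 with MG132 and 0.44 untreated, beside 0.02 and 0.01 over all tested genes. Meis1 averaged 231.8 ± 22.2 and 234.2 ± 48.5 in knockout cells with MG132 and untreated, against 17.4 ± 9.70 and 22.6 ± 10.2 in wild-type cells, differences of 2.93 (adjusted p = 6.6e-09) and 2.71 (adjusted p = 2.29e-08). Meis2 went the other way, at 189.4 ± 5.41 and 163.1 ± 25.9 against 982.5 ± 62.2 and 733.3 ± 58.4, differences of -2.28 (adjusted p = 3.48e-13) and -2.07 (adjusted p = 1.63e-12). Pknox2 was higher by 2.46 and 2.49 (adjusted p = 1.96e-06 and 1.91e-06), and Meis3 by 1.11 and 0.98 (adjusted p = 1.1e-05 and 5.15e-05).

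Other transcription factors that mark body position also differed. Of 41 listed, 24 were tested, and 6 were higher and 15 lower in knockout cells with MG132, 7 higher and 15 lower untreated. The shares over all tested genes were 30.7% higher and 28.1% lower with MG132, and 28.6% and 26.9% untreated, and the counts of the gene lists that follow are read against these. The median differences of the 24 tested factors were -0.71 and -1.47. Tbx5, a forelimb and heart gene, gave 3.83, 11.1, 8.31 and 7.34 in knockout cells with MG132 and 29.6, 3.98, 22.1 and 5.62 untreated. In wild-type cells it gave 220, 223, 273.9 and 190.9 with MG132 and 335.4, 405.6, 359.6 and 438.8 untreated. It was lower without overlap, with log2 differences of -3.36 (adjusted p = 1.38e-09) and -3.76 (adjusted p = 2.5e-10).

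Tbx4, its hindlimb and lung counterpart, gave 1000, 984.6, 1179 and 1112 in knockout cells with MG132 and 1368, 1472, 1413 and 1200 untreated. In wild-type cells it gave 95.8, 58.6, 18.9 and 56.0 with MG132 and 90.9, 107.5, 121.7 and 89.1 untreated. It was higher without overlap, by 4.00 (adjusted p = 5.07e-12) and 3.55 (adjusted p = 3.56e-11). Pitx1, a hindlimb factor that acts with Tbx4, averaged 122.5 ± 22.3 and 155.7 ± 50.4 in knockout cells against 150.9 ± 16.1 and 177.6 ± 56.0 in wild-type cells, which missed the threshold (adjusted p = 0.304 and 0.536). Among other listed factors of limb and skeletal mesenchyme, Lhx9 was lower in knockout cells (-3.34 with MG132 and -3.66 untreated), as were Msx2 (-4.61 and -4.69), Msx1 (-3.14 and -4.14), Prrx2 (-1.94 and -1.55) and Lhx2 (-2.82 and -2.29). Shox2, a factor of proximal limb bones, was higher (1.34 and 1.84).

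**Figure D4:**
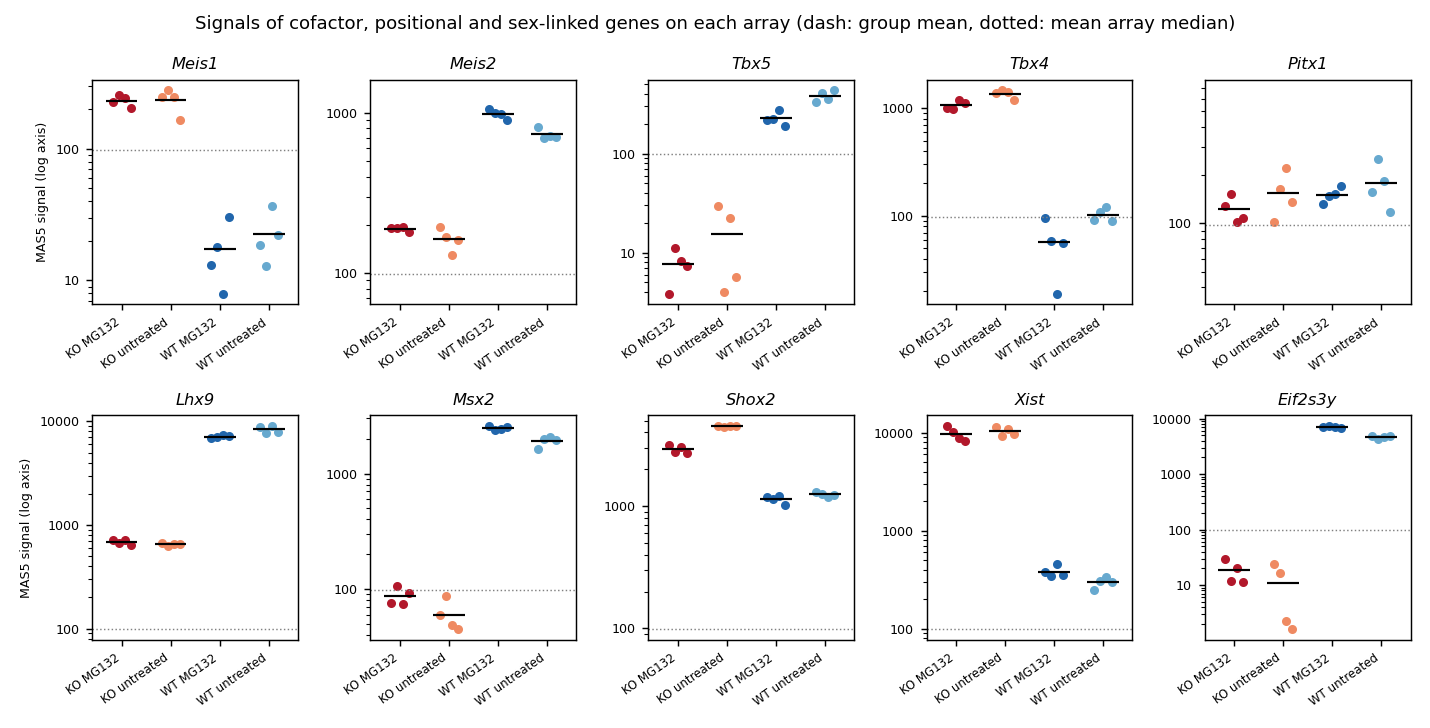
MAS5 signal (log axis) of Hox cofactors, positional factors and sex-linked genes on each of the 16 arrays, with knockout (KO) left of wild type (WT) and MG132 left of untreated; points are arrays, dashes group means, the dotted line the mean array median. Tbx4 and Xist sit higher and Tbx5, Meis2 and Eif2s3y lower on all 8 KO arrays than on all 8 WT arrays, and Pitx1 overlaps.

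Genes beside Hoxd differed by less than 1 log2 unit. Of 7 tested genes around Hoxd, 2 were higher and 4 lower in knockout cells with MG132, and 2 higher and 2 lower untreated. Lnpk, next to the posterior end of Hoxd, averaged 6345 ± 237 and 4005 ± 206 in knockout cells with MG132 and untreated, against 8459 ± 164 and 5718 ± 140 in wild-type cells, differences of -0.41 (adjusted p = 9.55e-08) and -0.51 (adjusted p = 4.47e-09). Mtx2, on the anterior side, was higher by 0.12 (adjusted p = 0.0384) and 0.29 (adjusted p = 4.13e-05). Evx2, the homeobox gene beside Hoxd13, averaged 98.4 ± 54 and 117.6 ± 41 in knockout cells, against 183.3 ± 38.2 and 126.7 ± 32.7 in wild-type cells, lower with MG132 alone (-0.96, adjusted p = 0.0212). Nfe2l2, the gene of the oxidative stress factor NRF2, was lower (-0.64 and -0.96). Around Hoxa 5 of 8 were higher with MG132, and 3 higher and 1 lower untreated. Around Hoxb 4 were higher and 2 lower with MG132, and 2 higher and 1 lower untreated, of 8. Around Hoxc, 7 of 8 were higher at both treatments.

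Polycomb proteins keep Hox genes silent and Trithorax proteins keep them active. Of 27 tested Polycomb genes, 9 were higher and 7 lower in knockout cells with MG132, and 10 higher and 8 lower untreated, close to the 30.7% and 28.1% of all tested genes with MG132 and the 28.6% and 26.9% untreated. Their median differences were 0.06 and -0.02. Yaf2, a PRC1 subunit, was higher untreated by 0.59 (adjusted p = 7.23e-09). Mtf2, a subunit that recruits Polycomb complex PRC2, was higher untreated by 0.74 (adjusted p = 3.22e-07) and Suz12, a core subunit of it, lower (-0.42, adjusted p = 2.56e-05). Rnf2, the ubiquitin ligase of the PRC1 complex, was lower with MG132 (-0.61, adjusted p = 1.36e-09). Of 14 Trithorax and H3K27 demethylase genes, 7 were higher and 1 lower with MG132 and 5 higher and 3 lower untreated, with median differences of 0.19 and 0.10. Wdr5 and Ash2l, core subunits of H3K4 methyltransferases, were higher with MG132 by 0.62 (adjusted p = 2.18e-09) and 0.51, and untreated by 0.14 and 0.45.

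Retinoic acid and its receptors set the anterior Hox genes in the embryo. Of 9 tested upstream regulators, 1 was higher and 2 lower with MG132, and 5 were lower untreated. Cyp26b1, which degrades retinoic acid in limb mesenchyme, averaged 93.7 ± 49.2 and 46.4 ± 45.9 in knockout cells with MG132 and untreated, against 516.6 ± 111 and 668.2 ± 192 in wild-type cells, differences of -2.41 (adjusted p = 9.28e-05) and -3.77 (adjusted p = 4.04e-07). Rarg, a retinoic acid receptor, was lower (-1.02 and -1.10). The 10 listed noncoding transcripts of the clusters had no probe set naming them alone and were not measured here.

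The fibroblast label was checked against 15 markers. Vim, the intermediate filament of mesenchymal cells, averaged 48500 and 48070 in knockout cells with MG132 and untreated, against 49750 and 46530 in wild-type cells, which missed the threshold. Of 14 tested markers, 3 were higher and 10 lower in knockout cells with MG132, and 4 higher and 7 lower untreated, with Pdgfra, a growth factor receptor of mesenchyme, lower (-4.00 and -4.19) and Thy1, a surface marker, higher (2.85 and 3.50). Summed over 6 neural markers, signals were 2378 to 2848 and 1825 to 2209 in knockout cells with MG132 and untreated, against 5019 to 5661 and 5358 to 6336 in wild-type cells, and 2 were higher and 2 lower with MG132 and 3 lower untreated. Sox2, a stem cell and neural factor, averaged 114.3 and 184.3 in knockout cells, against 1588 and 1775 in wild-type cells. Between genotypes, muscle markers summed to 826.1 to 978 and 802 to 1009 in knockout cells, against 707.8 to 1027 and 1166 to 1460 in wild-type cells, macrophage markers to 524.3 to 626 and 401.5 to 560.1 against 666 to 785.3 and 443.3 to 562.9, and endothelial markers to 409.9 to 603.8 and 305.7 to 485 against 334.1 to 430.6 and 427 to 552.2. No marker could be called absent without detection calls, and the part of such differences in the Hox results was not tested.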

How the data were processed

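RNA of 16 plates was measured on Affymetrix 3' arrays. Per the labels, total RNA was purified and labelled with biotin by in vitro transcription. The deposited intensities are MAS5 signals on a linear scale (MAS5 per the submitters' processing notes, version not given in the sources used here), which the authors had scaled so that every array has a mean of 1000 after 2% of values were trimmed at each end. Of 45101 probe sets, 64 controls, 9160 without a gene and 932 naming several genes were left out. Where several probe sets named a gene, the brightest on average over the 16 arrays stood for it. Gene names came from the platform table, and 34741 of 34945 probe sets matched the RefSeq gene table by identifier, with 0 symbols changed.

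Signals were analysed as log2(signal + 16) by limma 3.58.1 (R 4.3.3) using a coefficient for each group, a mean-variance trend, 12 residual and 7.65 prior degrees of freedom, and no further normalisation. The tests of 5 contrasts were two-sided, and p-values were adjusted over 11451 genes by Benjamini-Hochberg. The fit was tested on simulated data. Full values are given for the 6 largest called changes in each contrast and the 6 highest mean signals among Hox genes. Genes of other lists are taken from those with the 4 smallest adjusted p in a contrast described, with Tbx5, Tbx4 and Pitx1 and the checks of genotype and sex. Evx2, Vim, Sox2 and dim Hox genes beyond the rule were named after their values were seen. The Hox genes and all lists were chosen with earlier results of these data known. 0 pairs of arrays were identical. Whether arrays of the same replicate number belong together was not settled, and the main fit did not pair them. Of 24 same-number pairs, 5 had deviations from their group means correlated above 0.1 (range -0.07 to 0.16). Between untreated wild-type and knockout arrays of the same number the correlation was 0.0847 to 0.1608. Alternatives covered the constant, scaling, filter, probe sets, variance model, arrays fitted, replicate block and leaving out each array.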

Additional observations from a re-analysis of the deposited data

Results flagged for a closer look

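In 80 sets of 4 arrays, 1 for each tested Hox gene and group, 3 had an array far from the other 3 by Dixon's criterion, and chance flags about 1 in 20 groups. Hoxa9 was 6100 in knockout MG132 replicate 3, above 5718 to 5741 on the other 3. Hoxb3 was 94.57 in knockout MG132 replicate 2, below 189.7 to 198.5 on the others, and Hoxd10 was 18.44 in untreated knockout replicate 4, above 6.03 to 7.57, all under the array median.

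Responses to MG132 that differed between genotypes by the interaction test were those of Hoxb2 (knockout minus wild type -1.73), Hoxa5 (-0.96) and Hoxa7 (0.54). Hoxb2 and Hoxa5 moved in opposite directions in the genotypes, and Hoxa7 fell in wild-type cells, with no call in knockout cells.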

How the results depend on the processing

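Of 50 Hox gene changes past the threshold, 37 kept their direction and call under those of 12 alternative settings that gave them a value and with each of the 16 arrays left out, and 0 changed sign. The 5 lower Hoxd genes at both treatments were among them. Members that rose with MG132 in wild-type cells numbered 1 with a constant of 64, with only the groups compared and with a filter of 12 arrays above the median, against 2. Members that rose in knockout cells numbered 1 with arrays centred on medians and 1 with no filter, against 0. The member with a higher response in knockout cells was lost with no filter (0 against 1). The 12-array filter removes genes that are bright in 1 genotype alone. Under it 6 fell in knockout cells, 1 had a lower response there, and the genotype counts were 3 higher and 1 lower with MG132 and 4 higher and 1 lower untreated.

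With 1 array left out, the counts were 0 to 0 higher and 8 to 10 lower for MG132 in knockout cells, 1 to 3 and 6 to 7 in wild-type cells, 0 to 1 and 2 to 3 for the interaction, 8 to 9 and 5 to 5 between genotypes with MG132, and 9 to 11 and 5 to 5 untreated. With the replicate block the 10 lower Hox genes in MG132-treated knockout cells stayed 10, and no such count moved by over 1.5 times. 8 of 16 arrays correlated best with their own number. Centring arrays on medians moved the all-gene median by 0.12 (knockout response), 0.13 (interaction) and 0.11 (genotypes with MG132). The share of calls that were higher was then 53.0%, 74.7% and 64.6%, against 41.2%, 50.1% and 52.3%. Knockout Hoxd8 to Hoxd11 and wild-type Hoxb signals lie below the array median without detection calls, so the sizes of these changes are set partly by the constant.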
